A study of Mus musculus with 32 samples.

Results

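Meg3, Rian and Mirg are long noncoding RNAs transcribed one after another from the imprinted Dlk1-Dio3 region of mouse chromosome 12. Their contacts with chromatin were followed here by RADICL-seq, in which RNA is ligated to nearby DNA inside crosslinked nuclei through an adapter, and each ligated molecule is read as a pair of tags, one from the RNA and one from the DNA. An interaction was taken as theirs when the Ensembl identifier of its RNA gene was that of Meg3, Rian or Mirg. Of 25231081 listed interactions in 15 libraries, 14079 met this rule, namely 7948 of Meg3, 5309 of Rian and 822 of Mirg, and these 3 genes stand among 17784 transcripts listed in the series.

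The libraries come from R08 mouse embryonic stem cells (mESC) and from Oli-neu, a mouse line derived from oligodendrocyte progenitor cells (mOPC). mESC 1FA (3 libraries) were fixed with 1% formaldehyde and mESC 2FA (3 libraries) with 2% formaldehyde. mESC ActD4 (2 libraries) were treated with actinomycin D, which blocks transcription, at 5 µg/ml for 4 h, and then fixed with 1% formaldehyde. mESC NPM (2 libraries) were fixed with 1% formaldehyde too. They went through protein digestion and reversal of the crosslinks ahead of RNA ligation, to leave contacts that do not need protein. mOPC 1FA (3 libraries) and mOPC NPM (2 libraries) are the same preparations of Oli-neu. Each cell type is 1 line, and replicates are batches of cells of different passage number.

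The files list only pairs of a transcript and a 25-kb DNA bin that the authors called significant after pooling the replicates of a condition, and the replicates of a group therefore share 1 list of bins. A library total is the number of listed interactions and not the sequencing depth, which the study gives but which was not used here. It was 2441619 to 2832717 in mESC 1FA, 2035499 to 2515347 in mESC 2FA, 251802 to 418781 in mESC ActD4, 434610 to 608994 in mESC NPM, 1998951 to 2210765 in mOPC 1FA and 1190366 to 1272653 in mOPC NPM. A pair that is not listed may still have been captured, and a smaller pool lists fewer weak pairs. Markers went with the labels in sum, but not each of them. Of 12 mESC markers, 10 or 11 were listed in each mESC library, at 1793 to 2872 CPM in sum (CPM is the number of interactions scaled to a library total of 1000000 listed interactions), and 1 to 3 in each mOPC library, at 0.949 to 32.8 CPM. Of 12 mOPC markers, 11 or 12 were listed in the mOPC libraries, at 13896 to 15143 CPM, and 1 to 8 in the mESC libraries, at 3.97 to 200.2 CPM. The mOPC sum is mostly that of Lhfpl3 and Sox6, while Pdgfra had 3, 8 and 4 interactions in mOPC 1FA against 8, 56 and 69 in mESC 1FA.

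The Dlk1-Dio3 region is a classic imprinted domain. The protein-coding genes Dlk1, Rtl1 and Dio3 are expressed mainly from the paternal chromosome, and the noncoding RNAs from the maternal one, under a control element between Dlk1 and Meg3 that is methylated on the paternal copy. Meg3 (also called Gtl2) is a nuclear RNA that has been reported to bind Polycomb proteins, Rian hosts a cluster of C/D box small nucleolar RNAs (snoRNAs), and Mirg hosts a large cluster of microRNAs. All 3 are read in the same direction and may be parts of a long common transcription unit.

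In mm10, Meg3 (ENSMUSG00000021268, lincRNA) lies at chr12:109541001-109571726, Rian (ENSMUSG00000097451, processed transcript) at chr12:109603940-109661716 and Mirg (ENSMUSG00000097391, lincRNA) at chr12:109729764-109749460, all on the plus strand. They cover 30.7, 57.8 and 19.7 kb, of which annotated exons make up 58.9%, 31.6% and 37.02%. Together they span 208 kb, with gaps of 32.2 kb and 68.0 kb between them. Dlk1 ends 77.7 kb before Meg3, and Dio3 starts 530 kb after Mirg. Of the region's microRNA hairpins in RefSeq, 14 lie in Mirg, 7 in Rtl1, 3 in Rian and 1 in Meg3, and 33 in none of these.

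The stretch of 100 bases with most RNA tags is shown for each RNA as an example of the sequence captured. It holds 1.59%, 1.13% and 3.28% of the tags of Meg3, Rian and Mirg, so most tags lay elsewhere. All 3 stretches are intronic. For Meg3 it held 126 of the RNA tags of all libraries (chr12:109553325-109553424, 12.3 kb from the gene start), for Rian 60 (chr12:109631682-109631781) and for Mirg 27 (chr12:109732892-109732991). The reference sequence is printed for the plus strand.

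Meg3 intron, most captured 100 bases: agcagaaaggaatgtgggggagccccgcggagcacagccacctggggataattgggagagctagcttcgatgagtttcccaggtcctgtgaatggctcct

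Rian intron, most captured 100 bases: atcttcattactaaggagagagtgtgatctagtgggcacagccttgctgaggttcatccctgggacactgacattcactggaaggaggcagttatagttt

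Mirg intron, most captured 100 bases: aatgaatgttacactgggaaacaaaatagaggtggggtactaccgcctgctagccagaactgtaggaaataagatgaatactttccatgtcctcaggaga

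The start of Meg3 is shown because it is the head of the cluster and lies in the stretch of DNA that all 3 RNAs contacted. It is the RefSeq window for GRCm38 from 250 bases before to 50 bases after the first base (chr12:109540746-109541045), with the palindrome TGACGTCA, the full cyclic AMP response element, in capitals. The motif was found in 586 of 32544 such promoter windows (1.80%), and not in the other windows of Meg3, Rian and Mirg. In all libraries, 6 DNA tags of the 3 RNAs fell in this window.

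Meg3 promoter: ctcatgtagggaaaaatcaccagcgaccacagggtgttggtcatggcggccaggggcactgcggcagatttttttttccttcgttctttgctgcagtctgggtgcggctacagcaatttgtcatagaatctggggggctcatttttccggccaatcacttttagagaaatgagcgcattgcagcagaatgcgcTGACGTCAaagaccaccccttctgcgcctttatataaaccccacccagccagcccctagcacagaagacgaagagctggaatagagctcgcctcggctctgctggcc

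All 3 RNAs were captured in every untreated mESC library and listed at 0 in all 5 mOPC libraries. In mESC 1FA, Meg3 had 1485, 1142 and 1194 interactions (557, 468 and 422 CPM), Rian 893, 768 and 895 (335, 315 and 316 CPM) and Mirg 141, 120 and 132 (52.8, 49.1 and 46.6 CPM). Meg3 ranked 6th, Rian 12th and Mirg 66th of the 1431 long noncoding RNAs listed there. Per kb of gene, so that the lengths do not count, the mESC 1FA levels were 13.7 to 18.1 CPM for Meg3, 5.44 to 5.79 for Rian and 2.37 to 2.68 for Mirg, an order with no overlap. In mESC NPM Rian (7.25 and 10.57) and Mirg (7.59 and 9.84) overlapped, below Meg3 (25.6 and 34.1).

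**Figure D1:**
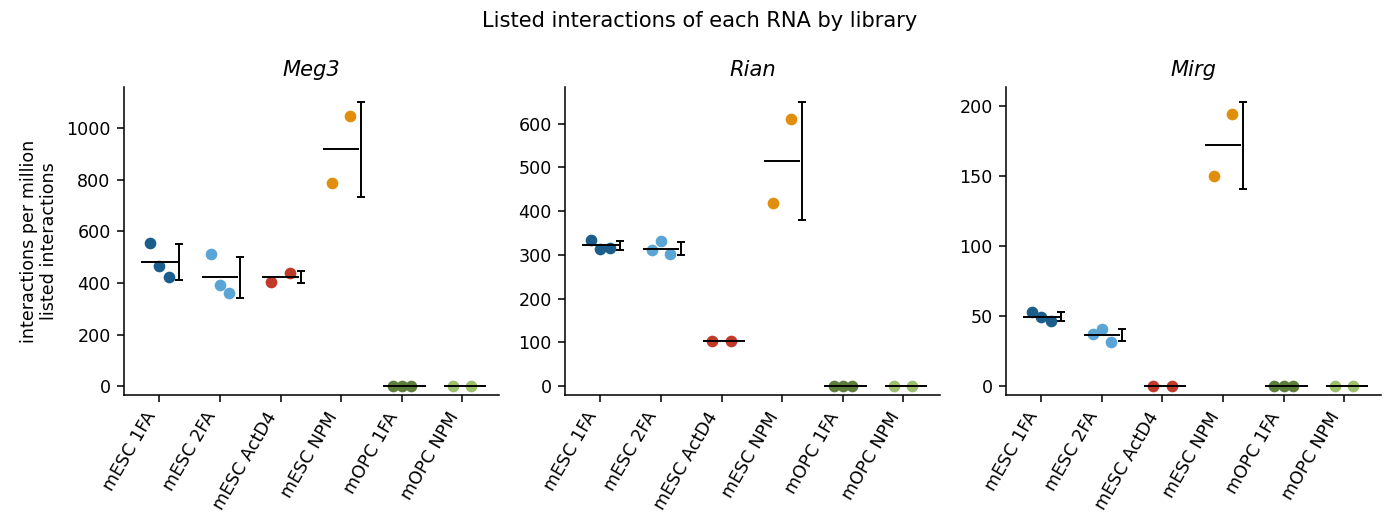
Listed interactions of Meg3, Rian and Mirg in CPM (y axis, linear) in each of the 15 libraries by group (points), with the group mean (line) and SD (error bar). All 5 mOPC libraries lie at 0 for each RNA, and for Mirg both mESC ActD4 libraries do too.

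In mOPC, none of the 3 RNAs had a listed interaction in either preparation. Because the replicates of a group share 1 list, these zeros have no spread of their own and the RNAs entered the comparison only through mESC, so the difference is given as values without a p. Over all 10007 transcripts tested between mOPC 1FA and mESC 1FA, 42.7% were called lower and 35.2% higher. With scaling by the library total in place of trimmed-mean (TMM) factors, 5436 transcripts were lower and 2610 higher, against 4272 and 3522. In mOPC NPM against mESC NPM, 23.1% of 10980 transcripts were called lower and 27.2% higher (3592 and 2291 transcripts with total scaling, against 2541 and 2982). Because unlisted pairs are unknown, no fold is given against the listed 0. Whether less RNA was made or less was captured cannot be told apart in these data.

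Neighbouring RNAs of the region went with this pattern to a varying degree. Of 131 other genes in the region and its flanks, 15 were tested between mOPC 1FA and mESC 1FA, where 42.7% of all transcripts were lower and 35.2% higher. The noncoding RNAs Gm34081, between Dlk1 and Meg3, and Gm37899 and B830012L14Rik, between Rian and Mirg, were listed at 0 in all mOPC libraries, with 26, 35 and 33, 52, 65 and 56, and 21, 20 and 24 interactions in mESC 1FA. The noncoding RNA Gm34719, between Mirg and Dio3, went the other way, at 0 in every mESC library, with 12, 11 and 9 interactions in mOPC 1FA. In mOPC NPM it had 22 and 23. As for the members, the calls of these 4 RNAs rest on a listed 0, and they passed the filter on low values through 1 group. Their direction was fixed in this way, so no count of calls or median is given for the 15. The coding genes around the domain differed among themselves. Mok had 149, 116 and 152 interactions in mESC 1FA, 1, 3 and 3 in mOPC 1FA and was listed at 0 in mOPC NPM. Wdr25 fell by 1.53 (SE 0.10, limma adjusted p = 2.01e-06) and Ppp2r5c, a regulatory subunit of protein phosphatase 2A, fell by 1.79 (SE 0.11, limma adjusted p = 1.60e-06) on the log2 scale. Evl, an actin regulator, was higher by 0.61 (SE 0.09, limma adjusted p = 0.000469), but by 0.10 with scaling by the total (limma adjusted p = 0.2998). RNA of Dlk1, Rtl1 and Dio3 was listed at 0 in every library.

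Other imprinted noncoding RNAs did not follow 1 pattern. Kcnq1ot1, the antisense RNA of the Kcnq1 domain, had 4094, 3081 and 3355 interactions in mESC 1FA and 3078, 3274 and 3315 in mOPC 1FA, and was higher in mOPC by 0.73 (log2, SE 0.14, limma adjusted p = 0.00151), but by 0.22 and not past the threshold with scaling by the total (limma adjusted p = 0.137). Tsix, the antisense RNA of Xist, had 1125, 725 and 1148 in mESC 1FA and was listed at 0 in mOPC. Airn, the antisense RNA of Igf2r, had 33, 95 and 85 in mESC 1FA, was listed at 0 in mOPC 1FA, and had 30 and 29 in mOPC NPM. Of 8 such RNAs 4 were tested. No count of calls is given for them, as Tsix and Airn were listed at 0 in mOPC 1FA and passed the filter on low values through mESC 1FA.

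Over the 15 libraries, the transcripts whose log2 CPM was most like that of Meg3 were Zdbf2 (Pearson r = 0.999, itself an imprinted gene), Sfrp1, a secreted antagonist of Wnt signalling, Trim25, Ddx19b and Gm13261, among 4266 candidates. All 5 were listed at 0 in mOPC, so the likeness is largely the split between the cell lines, which the points share. Rian gave r = 0.994. Mirg gave r = 0.768 and differed in ActD4, where it was at 0 and Meg3 was not.

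In mESC 1FA, most contacts of Meg3 and Rian lay outside their own genes and reached far along chromosome 12, whereas Mirg stayed closer. The share of interactions with DNA outside the own gene was 82.5%, 78.8% and 81.2% for Meg3 in the 3 libraries, 78.3%, 78.0% and 75.6% for Rian and 56.0%, 43.3% and 52.3% for Mirg. The share beyond 100 kb on chromosome 12 was 54.4% ± 1.79 (SD, n = 3) for Meg3, 58.2% ± 2.29 for Rian and 19.6% ± 4.74 for Mirg. Meg3 and Rian overlapped in this share, and every Mirg library lay below every library of the other two.

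The median distance between RNA tag and DNA tag on chromosome 12 was 128, 122 and 145 kb for Meg3, 141, 172 and 160 kb for Rian and 13.6, 7.02 and 10.3 kb for Mirg. Contacts of 1 to 10 Mb made up 13.5% to 15.3% of Meg3, 7.28% to 8.94% of Rian and none of Mirg. Only Meg3 had contacts over 10 Mb, at 0.741% to 1.05%. Among the 202 long noncoding RNAs with at least 100 interactions in mESC 1FA, the median share beyond 100 kb was 26.5%, and 87.6% of them lay below Meg3, 90.1% below Rian and 34.2% below Mirg. As a limit, a more abundant RNA has more weak bins above the threshold of the list, and Mirg had the fewest interactions of the 3.

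**Figure D2:**
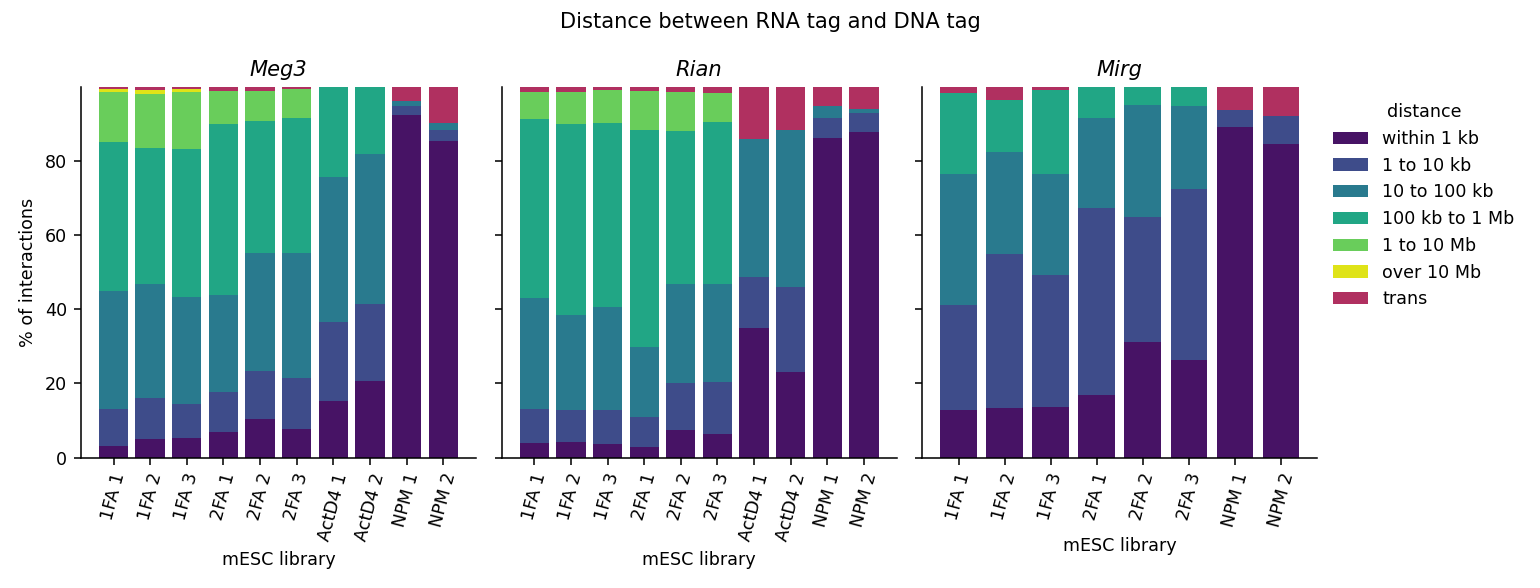
Share of the interactions of Meg3, Rian and Mirg (y axis, percent) in each class of distance between RNA tag and DNA tag, with contacts on other chromosomes (trans) on top, in each mESC library (x axis, named by group and replicate). Contacts within 1 kb make up 84.7% to 92.4% in the NPM libraries and 3.16% to 13.6% in the 1FA libraries; Mirg has no bar for ActD4, where it was listed at 0.

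The Meg3 contacts of mESC 1FA fell in 125 bins of chromosome 12, of which 2 held the gene, 53 lay upstream and 70 downstream. Of its chromosome 12 contacts, 85.4% lay in bins within 1 Mb and 95.5% within 2 Mb of the gene. Rian covered 90 bins and Mirg 16. Most bins were shared. All 16 Mirg bins were also Meg3 bins and Rian bins, and 82 bins were shared by Meg3 and Rian, which is 65.6% of the Meg3 bins and 91.1% of the Rian bins.

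The spread was not even on the 2 sides. From 100 to 500 kb from the gene, 24.04%, 32.1% and 31.2% of the Meg3 contacts in mESC 1FA were upstream, and from 500 to 1000 kb 57.4%, 63.2% and 52.2%. Rian gave 37.1%, 37.6% and 39.9%, and then 54.7%, 60.5% and 63.1%. Every mESC 1FA library of both RNAs was below 50% from 100 to 500 kb and above it from 500 to 1000 kb. In mESC 2FA the same held but for Rian in replicate 2, at 50.4% from 100 to 500 kb, and in mESC ActD4 Meg3 had 45.5% and 66.7% from 500 to 1000 kb, on 11 and 3 contacts. In mESC 1FA Meg3 was again below 50% from 1000 to 2000 kb, at 30.8%, 31.3% and 25.6%, as within 100 kb, where it had 36.5% to 38.5%, and Rian had 42.2% to 47.8% within 100 kb and 42.0% to 67.3% from 1000 to 2000 kb. The upstream class from 100 to 500 kb holds a stretch between Begain and Dlk1, a gene-poor region, where few contacts of any RNA were listed. There, listed bins with a start 191 to 441 kb before Meg3 held 19 to 82 interactions of any RNA over the 3 mESC 1FA libraries, and other bins of that stretch had none listed, and the bins of Dlk1 and Begain 265 and 222. How much of that stretch can be mapped was not tested.

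**Figure D3:**
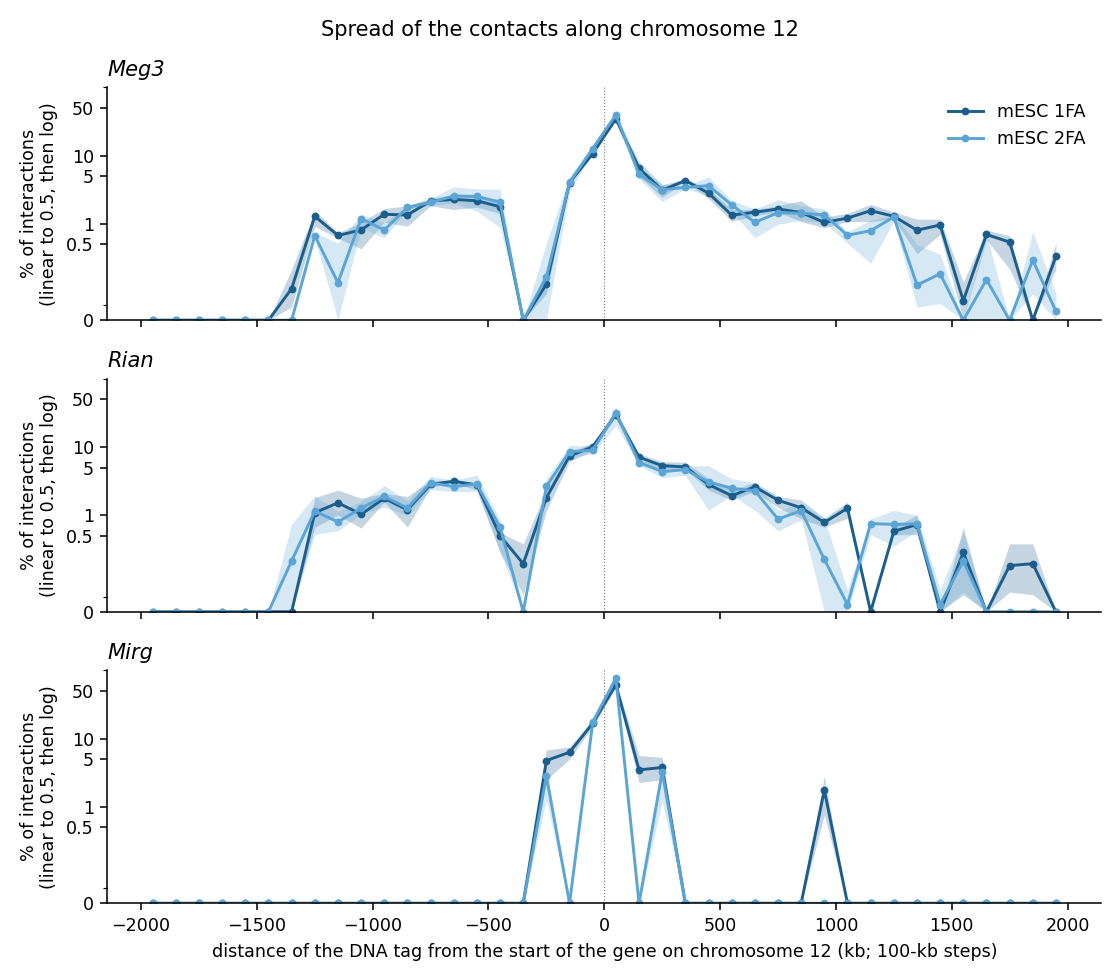
Share of all interactions of Meg3, Rian and Mirg (y axis, percent, linear to 0.5 and logarithmic above) by the distance of the DNA tag from the start of the gene (x axis, kb, steps of 100 kb) in mESC 1FA and mESC 2FA, as the mean (line) and range (band) of 3 libraries. Meg3 and Rian are at or near 0 in the 100-kb step that starts 400 kb before the gene and rise again beyond it, and Mirg has few steps above 0.

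Within the imprinted domain, Meg3 RNA contacted Rtl1 more densely than Dlk1, Rian and Mirg, which all lie further from the Meg3 gene. Over the 3 mESC 1FA libraries it had 727 interactions with its own gene (23.7 per kb of DNA), 118 with Rtl1 (10.6 per kb; 49, 35 and 34 by library), 53 with Dlk1 (5.04 per kb; 21, 17 and 15), 204 with Rian (3.53 per kb; 89, 55 and 60) and 52 with Mirg (2.64 per kb; 28, 9 and 15). Between Dlk1 and Meg3 it had 106 with Gm34081 (4.57 per kb) and 12 with Gm27528 (5.96 per kb), so Dlk1 did not stand out from the DNA beside it. Rtl1, a retrotransposon-derived gene of the placenta, and Dlk1, a ligand-like inhibitor of differentiation, are the paternally expressed neighbours. Rtl1 lies in the gap of 32.2 kb between Meg3 and Rian. Whether Meg3 RNA contacted Rtl1 more densely than the DNA beside it, or than its distance would give, was not tested. Rian RNA had 581 interactions with its own gene (10.1 per kb), 36 with Rtl1 (3.23), 33 with Dlk1 (3.14), 77 with Meg3 (2.51) and 47 with Mirg (2.39), and just after its own gene 40 with Gm37899 (4.59). Mirg RNA had 193 with its own gene (9.80 per kb), 12 with Meg3 (0.391) and 7 with Rian (0.121), and none was listed with Dlk1 or Rtl1. The 25-kb bin of Dio3, which encodes the deiodinase that inactivates thyroid hormone, was contacted by Meg3 (21 interactions with 1% formaldehyde and 16 with 2%) and by Rian (12 in each).

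Beyond 100 kb, the Meg3 bin with most interactions in mESC 1FA was that of Mirg (chr12:109725001-109750000, 63 interactions), followed by chr12:109400001-109425000 upstream of Dlk1, with no annotated gene (61), and chr12:109675001-109700000 with snoRNA genes and B830012L14Rik (59). For Rian it was the bin of Dlk1 (chr12:109450001-109475000, 57), and for Mirg chr12:109475001-109500000 with Gm34081 (11). The furthest Meg3 bins lay upstream, at −25341 to −22666 kb from the gene, in 4 bins of 8 interactions each that hold among others Elmsan1, Ylpm1, Dlst and Rps6kl1. Each of these 4 was close to the weakest of the list (adjusted p of the deposited files 0.0185), and none was listed in another group.

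The DNA of the 3 genes was in turn contacted mostly by RNA of the same region. On the Meg3 gene in mESC 1FA, 75.5% of 963 interactions were of Meg3 RNA, followed by Rian (77), Gm22973, a small nuclear RNA encoded on chromosome 12 (36), Ppp2r5c (32), Wdr25 (27) and the transcription factor gene Yy1 (18). On the Mirg gene the share of its own RNA was 45.3% of 426, followed by Meg3 (52), Gm22973 and Rian (47 each), Ppp2r5c (23) and Malat1 (18), which comes from chromosome 19. In mOPC 1FA only 8 interactions were listed on these genes, all of Evl RNA on Rian (4, 0 and 4 by library).

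Contacts listed in trans were few and nearly all with 1 bin of the reference genome. Of 239 trans interactions of the 3 RNAs, 226 had their DNA tag on chromosome 17 in the bin chr17:39825001-39850000, and these lay within 5.78 kb, between positions 39843024 and 39848804. There 225 of the 226 fell in a stretch that the annotation gives as ribosomal RNA gene sequence (CT010467.1, Gm26917, Gm42418, AY036118), which is repeated many times in the genome. Which copy was contacted, and on which chromosome, cannot be told from these tags, so trans here means the listed position. The bin was not particular to the cluster: 990 to 1033 transcripts of other chromosomes contacted it in each mESC 1FA library, and 2000 to 2066 in each mESC NPM library. The other 13 trans interactions were of Meg3 in mESC NPM (2 and 11 by library), in chr11:109000001-109025000, where 92 and 97 transcripts in all were listed in trans. Of these 13 tags, 12 fell in 300 bases (chr11:109011738-109012037). The reference sequence of these bases shares 0 of 281 words of 20 bases with the chromosome 17 stretch, and whether it is ribosomal RNA gene sequence of another part was not tested. This bin too rose for all transcripts, from 51.9 to 88.1 trans CPM in mESC 1FA to 1385 and 1427 in mESC NPM.

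With 2% formaldehyde no level of the 3 RNAs passed the test without regard to replicate number, and Mirg passed it within replicate pairs. Meg3 had 1151, 801 and 913 interactions in mESC 2FA (513, 394 and 363 CPM), Rian 696, 674 and 760 (310, 331 and 302 CPM) and Mirg 83, 83 and 80 (37, 40.8 and 31.8 CPM). Both of the former overlapped with mESC 1FA, and Mirg did not. The log2 differences from mESC 1FA were −0.24 for Meg3 (SE 0.14, limma adjusted p = 0.541), −0.08 for Rian (SE 0.10, limma adjusted p = 0.798) and −0.49 for Mirg (SE 0.16, limma adjusted p = 0.292). The replicate numbers pair these libraries, and in CPM Meg3 and Mirg were lower in mESC 2FA in 3 of 3 pairs. With the replicate number as a block, Mirg passed the threshold at the same difference (limma adjusted p = 0.0420) and Meg3 did not (limma adjusted p = 0.0665). Without the block 0.0305% of 9837 transcripts (3) were called in either direction, and with it 505.

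Listed contacts of Mirg also lay closer to its gene in mESC 2FA. They fell in 7 chromosome 12 bins against 16 in mESC 1FA, and all 7 were bins of mESC 1FA. Fewer listed bins and nearer contacts cannot be told apart here. The share outside the own gene was 36.1%, 36.1% and 26.2%, against 43.3% to 56.0% in mESC 1FA (exact permutation test, two-sided, p = 0.1, adjusted p = 0.225 over 9 shares, where 3 against 3 libraries cannot give less than 0.1). Its share beyond 100 kb was 6.08% ± 2.04 (SD, n = 3) against 19.6% ± 4.74, without overlap (exact permutation p = 0.1), but the difference turned to 1.59 points when only bins listed in both groups were counted. Meg3 had 74.7% ± 3.76 outside its gene against 80.8% ± 1.86, without overlap (exact permutation p = 0.1), and was lower in 3 of 3 pairs (exact sign-flip permutation p = 0.25, the least that 3 pairs allow). Rian had 74.5% ± 7.65 against 77.3% ± 1.45, with overlap (exact permutation p = 0.5). Of the Meg3 bins, 78 were shared between the fixations, which is 62.4% of the 125 in mESC 1FA and 88.6% of the 88 in mESC 2FA.

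After actinomycin D the listed interactions of the 3 RNAs did not change alike. Meg3 had 170 and 111 interactions in mESC ActD4 (406 and 441 CPM), which overlapped with mESC 1FA. Rian had 43 and 26 (103 and 103 CPM), below every mESC 1FA library, and Mirg was listed at 0 in both. Listed interactions of Rian fell by 1.82 on the log2 scale (SE 0.11, limma adjusted p = 4.20e-06), a 3.54-fold decrease. Of 10235 transcripts, 40.3% were called lower and 21.7% higher. With its own gene Rian had 194, 169 and 218 interactions in mESC 1FA and 26 and 13 in the smaller mESC ActD4 libraries. Outside it the numbers were 699, 599 and 677, and 17 and 13. These are raw numbers, from library totals of 2667971, 2441619 and 2832717 and of 418781 and 251802. On average 77.3% of the Rian interactions lay outside the gene in mESC 1FA and 44.8% in mESC ActD4, so contacts with its own gene fell less than the others. The listed chromosome 12 bins of Rian were 90 and 5, and the replicates of a group share 1 list, which limits what this difference shows. How much of the fall lies in weak bins that a smaller pool does not list was not tested. Mirg had no bin on the list that both mESC ActD4 libraries share, and its zeros are given without a p. The difference of Meg3 was −0.36 (SE 0.14, limma adjusted p = 0.0535), near the median of all transcripts of −0.28. It passed the threshold without mESC ActD4 replicate 2 (−0.45, limma adjusted p = 0.0408), where the lone ActD4 library is assumed to vary like those of mESC 1FA. With each bin counted once, the Rian difference was −1.04. With scaling by the total, the median of all transcripts moved to −0.10, Rian to −1.64 and Meg3 to −0.18.

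Of the snoRNAs in and just after Rian, some were listed in mESC ActD4 and others were not. DQ267100 had 18, 12 and 8 interactions in mESC 1FA and 7 and 7 in mESC ActD4. The smaller mESC ActD4 pool listed no pair with fewer than 6 interactions. An RNA this weak could be listed there only if it was higher in CPM, so no test is given for it. Gm26922 had 6, 6 and 4 interactions in mESC 1FA and 4 and 3 in mESC ActD4, and Gm23736 6, 15 and 9, and 11 and 10. Both passed the filter on low values only through the small mESC ActD4 libraries, so they had to be higher there and no test is given for them. Listed at 0 in mESC ActD4 were DQ267101 (23, 6 and 4 interactions in mESC 1FA), DQ267102 (6, 9 and 4), AF357428 (4, 3 and 2) and AF357341 (3, 4 and 3), too low to be tested. DQ267100 and Gm26922 lie inside Rian on the chromosome, so tags in them could have been given to either gene, and Gm23736 lies beyond its end. Among 131 other genes of the region and its flanks, 17 were tested, and no count of calls or median is given for them. They include DQ267100, Gm26922 and Gm23736, which could be listed or tested only if higher, and RNAs listed at 0 in mESC ActD4. Over all transcripts 21.7% were higher and 40.3% lower. Wdr25 fell (−0.50, SE 0.10, limma adjusted p = 0.00325). The noncoding RNAs Gm34081, Gm37899 and B830012L14Rik were listed at 0 in mESC ActD4. Of 4 other imprinted noncoding RNAs tested, 3 were lower, where 40.3% of all transcripts were, among them Kcnq1ot1 by −2.004 (SE 0.13, limma adjusted p = 7.34e-06), and Airn was not called.

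Listed contacts of Meg3 and Rian in mESC ActD4 lay nearer to the genes. The transcripts with at least 100 interactions were 6874 for mESC 1FA and 1395 for mESC ActD4, so these sets differ. Their median share outside the own gene was 67.8% and 44.4%, and beyond 100 kb 36.5% and 25.4%. For the long noncoding RNAs among them (202 and 15) the median outside the own gene was 71.4% and 41.5%. Beyond 100 kb their median did not fall, at 26.5% and 27.8%. Rian, with 69 interactions in mESC ActD4, lay below this cut. The share of Meg3 outside its own gene was 54.7% and 51.4% in mESC ActD4 against 78.8% to 82.5% in mESC 1FA, and beyond 100 kb 24.1% and 18.02% against 52.5% to 56.1%. Rian had 39.5% and 50.0% outside its gene against 75.6% to 78.3%, and none beyond 100 kb. No group overlapped in these shares (exact permutation test, two-sided, p = 0.2 for each, the least that 2 against 3 libraries allow). For Meg3 13 chromosome 12 bins were listed against 125 in mESC 1FA, and for Rian 5 against 90, all of them bins of mESC 1FA. A smaller pool lists fewer weak bins, so a lower number of bins is not read here as a loss of contacts. When only bins listed in both groups were counted, the Meg3 difference beyond 100 kb became 3.95 points and the Rian difference outside the gene 11.5 points, both upward. The Rian share in trans, 13.95% and 11.5%, rests on 6 and 3 interactions, all in the ribosomal RNA gene bin.

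**Figure D4:**
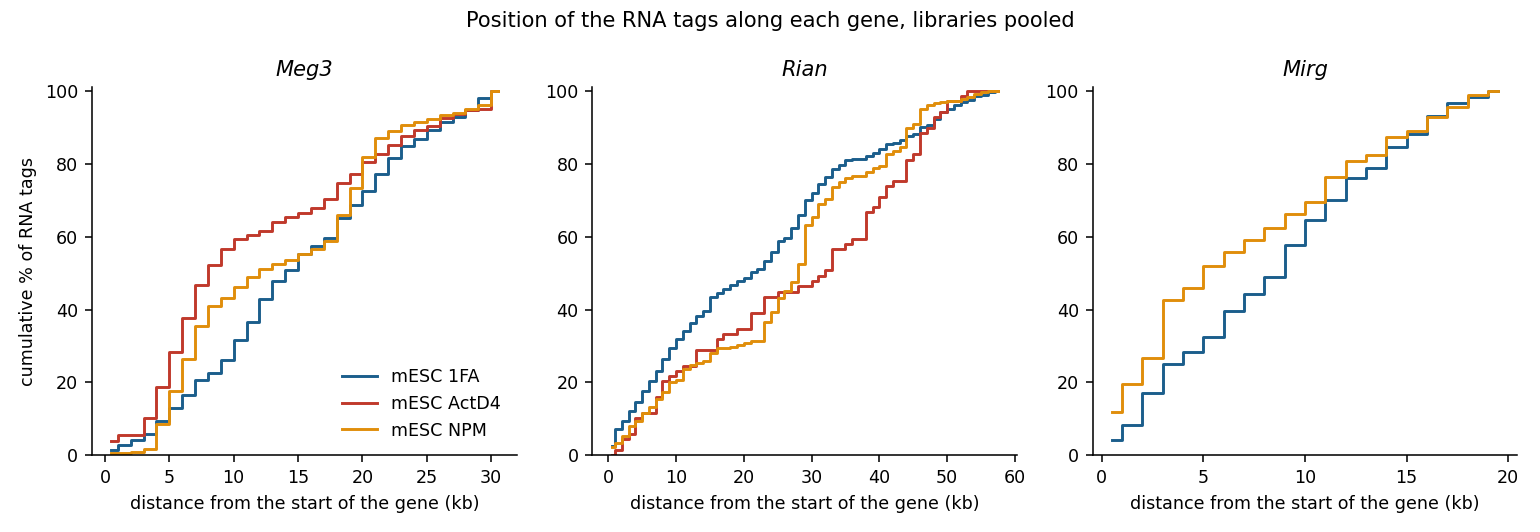
Cumulative share of RNA tags (y axis, percent) by distance from the start of the gene (x axis, kb) for Meg3, Rian and Mirg, with the libraries of a group pooled, in mESC 1FA, mESC ActD4 and mESC NPM. For Meg3 the ActD4 line rises first, with 57.7% of tags in the first of 3 equal parts of the gene against 27.2% in 1FA; Mirg has no ActD4 line.

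The first of 3 equal parts of the Meg3 gene gave more of the RNA tags in mESC ActD4. It held 57.1% and 58.6% of them, against 25.9%, 27.7% and 28.4% in mESC 1FA, 25.4% to 31.1% in mESC 2FA and 36.3% and 47.1% in mESC NPM. In mESC NPM this was not the very start of the gene, as the first kb held 0.612% of the tags and the sixth 9.17%, against 1.33% and 3.59% in mESC 1FA. Among contacts outside the own gene the first part held 52.7% and 54.4% in mESC ActD4, against 23.8% to 25.3% in mESC 1FA. In mESC NPM it held 38.5% and 53.2% of these, on 13 and 62 tags. Rian went the other way, with 39.5% and 42.3% of its RNA tags in the last of 3 parts against 17.4% to 19.3%, on 43 and 26 tags, and 26.4% and 21.5% in mESC NPM. These shares are given as values, without a test.

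When proteins had been removed, the spread along the chromosome was no longer listed. In mESC NPM Meg3 had 342 and 639 interactions (787 and 1049 CPM), Rian 182 and 372 (419 and 611 CPM) and Mirg 65 and 118 (150 and 194 CPM), each above every mESC 1FA library in CPM. On the TMM scale Mirg was higher by 1.11 (log2, SE 0.19, limma adjusted p = 0.000865, 2.16-fold), where 24.8% of 11410 transcripts were called higher and 28.4% lower. Meg3 differed by 0.25 (SE 0.20, limma adjusted p = 0.299) and Rian by −0.02 (SE 0.19, limma adjusted p = 0.942). With scaling by the total, 5564 transcripts were higher and 1276 lower, against 2825 and 3243, the median of all transcripts moved from 0.03 to 0.70, and Meg3 (0.92), Rian (0.65) and Mirg (1.78) all passed the threshold. With every listed bin of a transcript counted only 1 time per library, Mirg turned to −0.19, as its chromosome 12 bins went from 16 to 1. Replicates share 1 list of bins, so the spread of this measure is small by construction and no p is given. Without contacts with its own gene Mirg was 2.58, where the median of all transcripts was −4.62. That value is no gain of contacts outside the gene: 79, 52 and 69 were listed in mESC 1FA and 5 and 12 in mESC NPM, 4 and 9 of these in the ribosomal RNA gene bin.

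In the NPM libraries 84.7% to 92.4% of the contacts of each RNA lay within 1 kb of the RNA tag, against 3.16% to 5.19% for Meg3 in mESC 1FA, and the median distance was 0.194 to 0.313 kb. None lay beyond 100 kb. This was general in mESC NPM, where the median share beyond 100 kb was 0 over the 44 long noncoding RNAs with at least 100 interactions, and the median share outside the own gene 5.65%, against 71.4% in mESC 1FA. The share outside the own gene was 3.801% and 9.70% for Meg3, 4.95% and 6.18% for Rian and 7.69% and 10.2% for Mirg, below every mESC 1FA library (exact permutation test, two-sided, p = 0.2 for each, the least that 2 against 3 libraries allow). In bins listed in both groups the difference of Meg3 shrank from −74.1 to −13.8 points and that of Rian from −71.7 to −11.2. The chromosome 12 bins that stayed listed were those of the own gene, 2 for Meg3, 3 for Rian and 1 for Mirg.

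What Meg3 had outside its gene in mESC NPM was all listed in trans, 13 and 62 interactions, of which 11 and 51 were in the ribosomal RNA gene bin. The share in trans was 3.801% and 9.70% for Meg3, 4.95% and 5.91% for Rian and 6.15% and 7.63% for Mirg, all above mESC 1FA, where it was 0.609%, 1.11% and 1.84% on average (exact permutation p = 0.2 for each). The same bin rose for all transcripts, from 2671 to 5037 trans CPM in mESC 1FA to 25160 and 43644 in mESC NPM, and the part of this in the result was not tested. Over the 44 long noncoding RNAs with at least 100 interactions in mESC NPM the median share in trans was 4.07%, and without that bin neither Rian nor Mirg had a trans contact in any group.

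Exonic RNA made up more of the contacts in mESC NPM, and for Rian in mESC ActD4 too. The share of RNA tags in exons was 67.0% and 55.2% for Meg3 in mESC NPM against 53.4%, 50.7% and 50.7% in mESC 1FA, 44.5% and 36.8% for Rian against 27.3%, 27.2% and 22.6%, and 43.1% and 39.8% for Mirg against 35.5%, 27.5% and 35.6%. The groups did not overlap for any of the 3 (exact permutation test, two-sided, p = 0.2 for each, adjusted p = 0.2 over 3 shares). Per kb, tags in mESC 1FA were less dense in exons than in introns, with exon-to-intron ratios of 0.749, 0.747 and 0.841 for Meg3, Rian and Mirg, and in mESC NPM the ratios were 1.02, 1.41 and 1.18. In mESC ActD4 Rian had 51.2% and 30.8% of its 43 and 26 RNA tags in exons and a ratio of 1.67, and Meg3 52.9% and 53.2% and a ratio of 0.789. All 3 lay above the median of other long noncoding RNAs in exonic share: the median share of exonic tags over the 202 in mESC 1FA was 8.19%, and 81.7% of them lay below Meg3, 73.8% below Rian and 77.7% below Mirg. In mESC NPM the median over 44 was 15.7%, with 77.3% of them below Meg3, 70.5% below Rian and 72.7% below Mirg, so the median of long noncoding RNAs was higher in mESC NPM too.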

How the data were processed

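The authors sequenced RNA and DNA tags of each ligated molecule (base calls by CASAVA 1.8), aligned them to mm10 with BWA 0.7.15-r1140, assigned the RNA tags to annotated transcripts and counted contacts in 25-kb bins. The deposited files give the positions of both tags of every interaction, and the p-value and Benjamini-Hochberg p-value of the pair of transcript and bin, from a one-sided binomial test that the authors ran on pooled replicates. Only pairs under an adjusted p of 0.05 are listed. RNA and DNA entries of a library (32 in all, with re-sequencing) were treated as 1 of 15 libraries.

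Interactions per transcript and library were summed, and transcripts with at least 10 interactions' worth of CPM in as many libraries as the smaller group, and 15 in all, were compared on log2 CPM with TMM factors and a prior count of 0.5 in limma 3.58.1 (R 4.3.3; two-sided, Benjamini-Hochberg over all transcripts tested). The code was first run on simulated counts, which had no list of significant pairs and no bins shared by replicates, so that run does not cover these limits. Shares per library were compared by exact permutation tests, with at least 20 interactions in each library (Python 3.11.15, pandas 2.3.3, numpy 2.4.6). Gene positions came from GENCODE and sequences from RefSeq, both on GRCm38, the assembly of mm10. Of 17784 listed transcripts 242 carried no Ensembl identifier, and 99.8% of those with one matched a symbol. The members and gene lists were chosen with earlier results of these data known. Named were the 3 members, fixed lists of the region and of other imprinted noncoding RNAs, the bins with most interactions, the most distant bins and the transcripts most alike to Meg3.

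Same-numbered mESC 1FA and mESC 2FA libraries deviated together from their group means (r = 0.50, 0.39 and 0.58 over 5780 transcripts), so these numbers pair the libraries. The replicate numbers of the other comparisons gave no such correlation in every pair. The alternatives were scaling by total, no filter on low counts, a prior count of 2, each bin counted once, contacts with the own gene or with the ribosomal RNA gene bin left out (the last chosen after seeing the data), stricter or shared bins, the replicate block and each library left out in turn.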

Additional observations from a re-analysis of the deposited data

How the results depend on the processing

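Of 455 alternative values of capture, reach and RNA tag position, 431 kept the direction and the side of the threshold. Those of an RNA listed at 0 in a group did so by construction. For reach and RNA tag position only the direction could change, as the p of their exact permutation tests cannot fall below 0.1. Direction was kept by 248 values of reach and 21 of RNA tag position, and 6 of reach reversed. For capture 162 kept both, 9 reversed and 9 passed the threshold in the same direction. Where values changed, the cause was not tested. For capture (log2 differences from mESC 1FA, limma), counting each listed bin once gave −0.24, 0.20 and −0.98 for Meg3, Rian and Mirg in mESC 2FA, −0.44 for Meg3 in mESC ActD4 and −2.02, −1.57 and −0.19 in mESC NPM, all past the threshold; replicates share 1 list of bins, so the spread of this measure is small by construction. Scaling by total gave 0.92 for Meg3 and 0.65 for Rian in mESC NPM, and Rian without contacts with its own gene gave 0.17. Meg3 in mESC ActD4 passed without the low-count filter (−0.39), and ranged from −0.45 to −0.23 with a library left out. Rian in mESC NPM ranged from −0.33 to 0.32 with a library left out, never past the threshold. The replicate block took Mirg in mESC 2FA (−0.49) and Meg3 in mESC ActD4 (−0.44, where the libraries share only a number) past the threshold and changed no other call. It moved the transcripts called from 6349 to 5339 in mESC ActD4, from 6068 to 5025 in mESC NPM, from 7794 to 7795 in mOPC 1FA and from 5523 to 5839 in mOPC NPM against mESC NPM.

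For reach, in percentage points, counting only bins listed in both groups turned the share beyond 100 kb to 1.59 for Mirg in mESC 2FA and to 3.95 for Meg3 in mESC ActD4, and the share outside the own gene to 11.5 for Rian in mESC ActD4. The share of Rian beyond 100 kb in mESC 2FA ranged from −6.56 to 2.21 with a library left out (0.276 when replicate 2 of mESC 1FA was omitted and 2.11 when that of mESC 2FA was). Over all transcripts, without the low-count filter 11692 were called in mOPC 1FA, 2081 in mESC 2FA, 10283 in mESC ActD4 and 9246 in mOPC NPM against mESC NPM. In mESC 2FA, 3 were called (1136 at an unadjusted p under 0.05), and 4187 with each bin counted once, 48 without own-gene contacts, 505 with the block and 0 to 23 with a library left out. In mOPC NPM against mESC NPM, 661 were called with each bin counted once, 521 without own-gene contacts and 2522 and 2578 without mOPC NPM replicates 1 and 2; in mESC ActD4 4072 were called without mESC 1FA replicate 3. Reach was not run for mOPC, or for Mirg in mESC ActD4, where no interaction was listed, and the members could not be tested between mOPC NPM and mOPC 1FA. Sequencing depths, which the study gives, were not used here, and a shallower pool lists fewer weak bins.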
